A study of Mus musculus with 8 samples.

Results

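This section describes the insulin-like growth factor (IGF) system in pooled mouse hearts: the growth factors, their receptors, their binding proteins and the acid labile subunit. Genes were taken by symbol, namely Igf1, Igf2, Igf1r, Igf2r, Igfals and every symbol made of Igfbp and a digit. Of 12 such genes in the mouse, 11 were found, on 12 of the 9607 probe rows of the table; Igf1 had 2 rows and the others 1 each. Igfbp7 was not analysed here. All 11 genes were among the 7812 rows with enough measured arrays for a test.

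IGF1 and IGF2 are small peptides related to insulin that drive growth and cell survival through the tyrosine kinase receptor encoded by Igf1r. Binding proteins hold most of the peptides outside cells, prolong their life in blood and limit or direct their access to the receptor, and proteases release them again. In the heart the pathway is known for its role in the growth and survival of muscle cells.

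The study compared female with male hearts of C57BL/6 mice, an inbred strain with no engineered allele named in the labels, at 2 and at 8 months of age; no treatment is named. RNA of 6 whole hearts was pooled per sex and age, which gave 4 pools. Each two-colour array carried the female and the male pool of 1 age, with 4 arrays per age. The female pool carried the dye Cy3 on replicates 1 and 3 and the dye Cy5 on replicates 2 and 4. Values below are log2 female over male ratios, positive where the female pool gave more signal, and each age is summarised by averaging the Cy3 and the Cy5 orientation with equal weight. The SD beside a value is the spread of the technical arrays, not of animals.

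Ratios carry no level, so neither the order of the genes by abundance nor the heart label could be checked against marker levels. The sex labels could: Xist lay between 1.42 and 4.60 on the 8 arrays, and the Y-linked Kdm5d between -3.81 and -1.45. Replicates 1 and 2 at 8 months stood apart, since their ratios drifted smoothly with feature number, that is, with position in the printed layout. The SD of that drift was 0.51 and 0.81 on these arrays and 0.025 to 0.070 on the other 6. For this reason many 8-month values are repeated for the other pair of arrays (replicates 3 and 4), or with the drift subtracted. In whole tissue, fewer cells of a type and less RNA per cell cannot be told apart. Markers of other tissues moved between the pools as well. At 2 months the median ratio was 3.14 for 9 thymus and T cell markers, 1.71 for 7 adipocyte markers, 0.87 for 4 lung markers and 0.26 for 4 liver markers, and at 8 months it was 0.19, -0.045, 0.37 and -0.14. Endothelial markers were at -0.42 and -0.39 (7 genes), fibroblast markers at -0.14 and 0.17 (7 genes), macrophage markers at -0.39 and 0.23 (6 genes), smooth muscle and pericyte markers at -0.13 and -0.085 (7 genes) and cardiomyocyte markers at -0.051 and -0.30 (10 genes). Their part in the values below was not tested.

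Igfbp2 and Igfbp5 gave the highest and the lowest value over both ages, and they are next to each other among the protein-coding genes of chromosome 1. Their promoter windows are printed because these neighbouring genes had opposite signs in every pair of pools. Each window runs from 250 bases before to 50 bases after a RefSeq gene start in assembly GRCm38.p6; all 12 genes of the rule had at least 1 window. The first is Igfbp2 at chr1:72824230-72824529 on the plus strand (1 of 2 starts listed), and the second is Igfbp5 at chr1:72874816-72875115 on the minus strand. Capitals mark the motifs found.
Igfbp2: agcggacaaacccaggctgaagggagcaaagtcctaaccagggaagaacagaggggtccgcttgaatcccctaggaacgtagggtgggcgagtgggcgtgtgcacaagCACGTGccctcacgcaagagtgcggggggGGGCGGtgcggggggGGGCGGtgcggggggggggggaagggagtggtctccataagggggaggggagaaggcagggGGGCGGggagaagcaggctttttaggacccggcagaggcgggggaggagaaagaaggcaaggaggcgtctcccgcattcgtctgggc
Igfbp5: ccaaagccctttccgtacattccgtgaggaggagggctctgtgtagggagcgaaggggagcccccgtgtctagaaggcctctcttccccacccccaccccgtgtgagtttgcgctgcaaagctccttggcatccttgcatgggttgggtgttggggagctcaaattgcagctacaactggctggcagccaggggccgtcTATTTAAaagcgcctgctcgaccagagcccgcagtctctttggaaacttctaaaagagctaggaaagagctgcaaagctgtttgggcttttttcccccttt

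Each motif was searched on both strands, and none of the matches in these windows overlapped. The Igfbp2 window held GGGCGG (the GC box) 3 times and CACGTG (the E-box) 1 time, and 67.0% of its bases were G or C. The Igfbp5 window held neither, but held TATTTAA, which resembles a TATA box, 1 time. Of its bases 56.3% were G or C. The other Igfbp2 window, which is not printed, held none of the motifs searched, and 57.3% of its bases were G or C. GGGCGG occurred in 35.7% of all 32851 promoter windows of this length, CACGTG in 7.15% and TATTTAA in 4.51%. The other motifs were TATAAA, TTCNNNGAA and CAAAACA, in 13.6%, 8.3% and 6.28% of windows. CAAAACA, part of the insulin response element known from the Igfbp1 promoter, was found 1 time in the Igfbp1 window. TTCNNNGAA, the form of site bound by the growth hormone effector STAT5, was found in 2 of the Igfals windows. A match describes letters and not a bound site.

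Between the sexes over both ages, none of the 11 genes passed the test. Standard errors over both ages are those of limma, moderated over all rows, and not the plain SE of 2 pairs of pools. Igfbp5 was lowest at -0.68 ± 0.13, or 1.60-fold more in the male pools (SE, n = 2 pairs of pools; limma adjusted p = 0.236), and Igfbp2 was highest at 0.44 ± 0.13, or 1.36-fold more in the female pools (limma adjusted p = 0.361). The limma adjusted p-values of the other 9 genes were 0.524 to 0.999. Called rows made up 0.0896% of all rows tested, and 10.4% had an unadjusted p below 0.05, as did Igfbp2 and Igfbp5 here. In size, Igfbp5 was the 1 gene of the 11 at 1.5-fold or more over both ages, a size reached by 2.92% of rows. The median over the 11 genes was 0.00091 over both ages, against -0.019 over all rows.

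By sign the genes split. At 2 months 4 of 11 were above 0 and at 8 months 4 of 11, against 46.4% and 45.0% of all rows. Of the 11, 5 kept their sign from 2 to 8 months (Igf1, Igf2, Igf2r, Igfbp2 and Igfbp5), and 57.4% of all rows did. The binding proteins held both ends of the order by value over both ages, which ran from Igfbp2 through Igfbp3, Igfals, Igfbp6, Igfbp1, Igf1r, Igfbp4, Igf2r, Igf1 and Igf2 to Igfbp5. Neighbours in this order differed by no more than the larger of their moderated standard errors. The exception was the step from Igf2 at -0.33 ± 0.15 to Igfbp5. These standard errors come from the 2 age means alone, so the spread of the arrays within an age is not counted. With 1 array left out Igf2 ran from -0.57 to -0.084 and Igfbp5 from -0.87 to -0.49. These ranges overlapped, so the step does not set Igfbp5 apart.

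**Figure D1:**
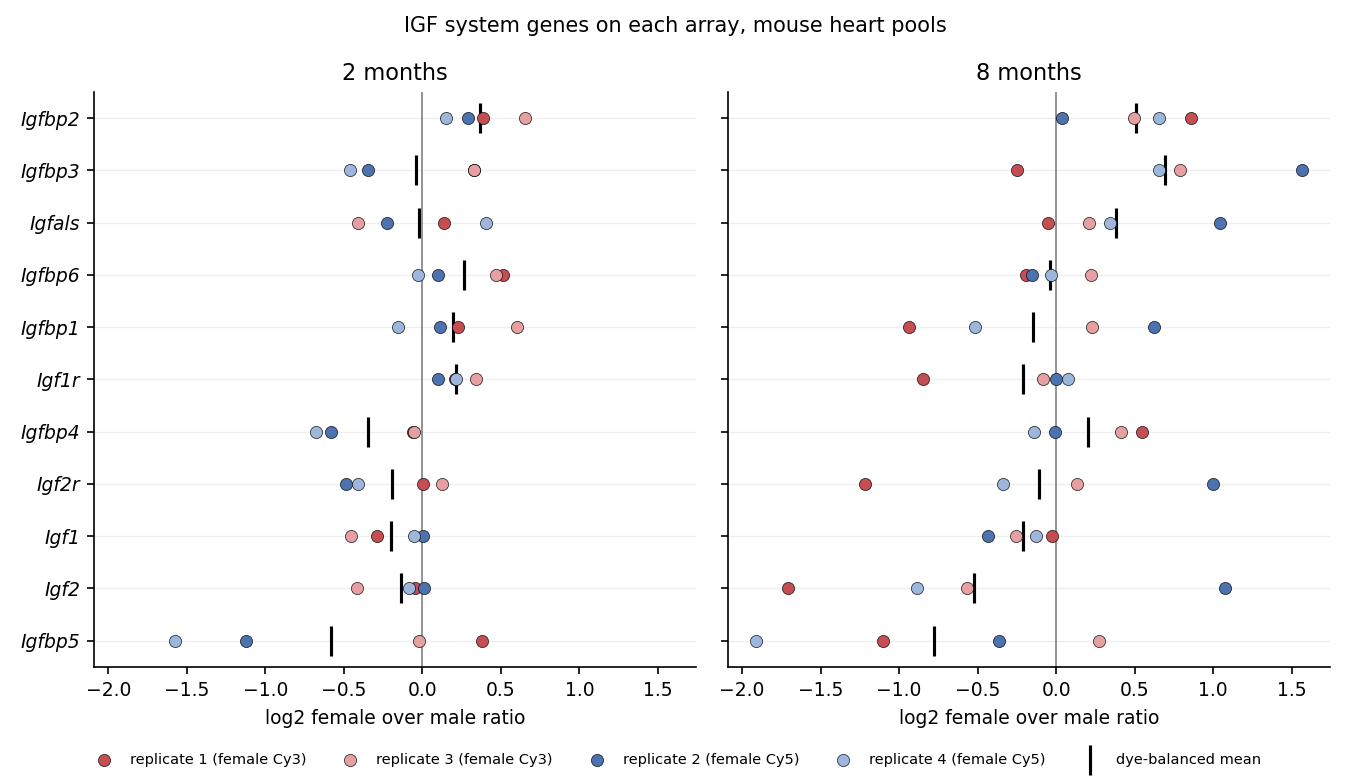
Log2 female over male ratio (x axis) of each of the 11 genes (rows, ordered by the value over both ages) on each array at 2 months (left) and 8 months (right); points are single arrays coloured by replicate and dye, and black bars are dye-balanced means. Igfbp2 lies above 0 on every array of both panels, and the points of most genes spread more widely at 8 months, where replicates 1 and 2 often hold the extremes.

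Of the ligands, Igf1 lay slightly on the male side at both ages. Averaged over its 2 rows it was -0.29, 0.0054, -0.45 and -0.055 on replicates 1 to 4 at 2 months, a mean of -0.20 ± 0.21 (SD, n = 4 arrays). At 8 months it was -0.027, -0.43, -0.26 and -0.13, a mean of -0.21 ± 0.18, so that 7 of 8 arrays were below 0. The 2 rows did not give the same picture. Probe 11864 was below 0 on all 4 arrays at 2 months, from -0.69 to -0.058 with a mean of -0.34, whereas probe 6943 was at -0.052 with 2 arrays on each side of 0. At 8 months they diverged on the drifting arrays, with 0.71 and -1.36 for probe 6943 and -0.76 and 0.49 for probe 11864 on replicates 1 and 2. The estimated drift there was 0.60 and -1.12 for the first and -0.53 and 0.32 for the second. In the average of the rows the drift was 0.033 on replicate 1 but -0.40 on replicate 2, and with it subtracted the 8-month mean of Igf1 was -0.12. On replicates 3 and 4 both rows were below 0, at -0.13 and -0.057 and at -0.39 and -0.20.

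Igf2, an imprinted growth factor made mainly before birth in the mouse, was near 0 at 2 months and lower in the female pool at 8 months on all but 1 array. At 2 months its arrays were at -0.048, 0.0073, -0.41 and -0.088, a mean of -0.14 ± 0.19. At 8 months they were at -1.71, 1.07, -0.57 and -0.88, a mean of -0.52 ± 1.17. The extremes were the drifting arrays: with the drift subtracted replicates 1 and 2 moved to -0.56 and 0.099. The 8-month mean of Igf2 was -1.01 without replicate 2 and -0.032 without replicate 4. Replicates 3 and 4 alone gave -0.73, or at least 1.5-fold with 1 sign, as did Igfbp3 and 3.06% of all rows.

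Of the receptors, Igf1r, the signalling receptor, was on the female side at 2 months on all 4 arrays, and not at 8 months. Its arrays were at 0.21, 0.10, 0.34 and 0.21 at 2 months, the tightest set among the 11 genes (mean 0.22 ± 0.097). At 8 months they were at -0.85, 0.0017, -0.082 and 0.075, a mean of -0.21 ± 0.43 that fell to -0.0034 on replicates 3 and 4. The arrays of the ages did not overlap for Igf1r, alone among the 11 genes and as for 5.93% of all rows. Its difference, 8 months minus 2 months, was -0.43, or -0.22 with replicates 3 and 4, below the 1.5-fold minimum. Replicate 1 at 8 months carried much of the mean, and for this row its drift was only 0.097.

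Igf2r, which binds IGF2 and takes it to lysosomes for breakdown, had separate ranges in the dye orientations at 2 months. At 2 months it was at 0.0039 and 0.12 with the female pool in Cy3 and at -0.49 and -0.41 with it in Cy5, a mean of -0.19 ± 0.30. At 8 months its arrays were at -1.22, 1.00, 0.13 and -0.34, a mean of -0.11 ± 0.93. With the drift subtracted they came to -0.56, -0.21, 0.057 and -0.27, with a mean of -0.25, and 3 of 4 were below 0. The higher orientation at 8 months, as deposited, was Cy5, the reverse of 2 months.

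Of the binding proteins, Igfbp2 was the most regular. Its arrays were at 0.39, 0.29, 0.65 and 0.15 at 2 months, a mean of 0.37 ± 0.21, or 1.29-fold. At 8 months they were at 0.86, 0.036, 0.50 and 0.65, a mean of 0.51 ± 0.35, or 1.43-fold. All 8 arrays were above 0, which no other of the 11 genes showed in either direction and which 1.8% of all rows showed upward (1.56% downward). The low array, replicate 2 at 8 months, had a drift of -0.94 at this row, and without the drift the 4 arrays were at 0.33, 0.97, 0.50 and 0.64. The mean was then 0.61, past 1.5-fold with 1 sign, as for 2.89% of all rows. It was the only one of the 11 genes to meet that rule there.

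Igfbp5, the binding protein with the largest ratio, was lower in the female pool by the mean at both ages, but its arrays at 2 months split by dye. It then was at 0.38 and -0.021 with the female pool in Cy3 and at -1.12 and -1.57 with it in Cy5, a mean of -0.58 ± 0.91. The difference of the orientations from their mean was 0.76 in size, larger than for 98.8% of all rows. At 8 months the arrays were at -1.10, -0.36, 0.27 and -1.91, a mean of -0.78 ± 0.94, and the orientations overlapped. Without replicate 4 at 8 months that mean was -0.39 and without replicate 2 it was -1.16. Replicate 3, with the female pool in Cy3, was the 1 array above 0 at that age, and replicates 3 and 4 gave -0.82 as a mean of values more than 2 log2 units apart. The size of the Igfbp5 ratio was thus within the spread of its arrays at each age.

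The genes with the array pattern most like that of Igfbp5 were Lman2, Coro1b and Phf1, with Pearson r of 0.96, 0.95 and 0.95 over the 8 arrays among 5632 other genes. The 8 arrays share pools, dyes and drift, and Lman2, Coro1b and Phf1 all had the same dye split at 2 months. Lman2, a cargo receptor of the secretory pathway, was at 0.30 in 1 orientation and -0.92 in the other, and Phf1, a Polycomb-associated protein, at 0.41 and -1.14. Coro1b, an actin regulator, was at 0.16 and -0.016, and kept to a narrow range on the 8 arrays, from -0.11 to 0.16.

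**Figure D2:**
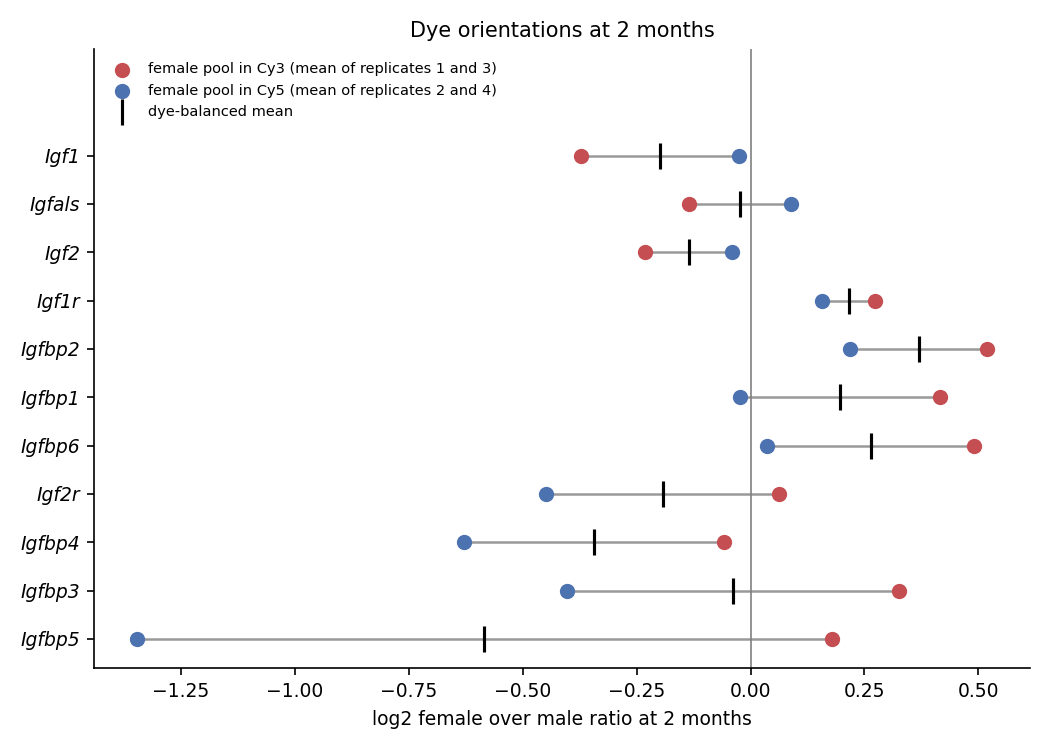
Log2 female over male ratio at 2 months (x axis) of the 11 genes, as the mean of the 2 arrays with the female pool in Cy3 (red) and of the 2 with it in Cy5 (blue), joined by a line, with the dye-balanced mean as a black bar. Igfbp5 runs from 0.18 to -1.35, and Igfbp3 from 0.33 to -0.40, whereas both orientations of Igf1r and Igfbp2 lie above 0.

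Igfbp3, the main carrier of IGFs in blood, gave the largest positive value at 8 months. At 2 months it was at 0.33 and 0.33 in the Cy3 orientation and at -0.35 and -0.46 in the Cy5 orientation, a mean of -0.038 ± 0.42. At 8 months its arrays were at -0.25, 1.57, 0.79 and 0.66, a mean of 0.69 ± 0.74, or 1.62-fold, with 3 of 4 above 0. Replicates 3 and 4, of opposite orientation, differed by little and averaged 0.72. With the drift subtracted all 4 were above 0, at 0.31, 0.43, 0.76 and 0.71. Its 8-month minus 2-month difference of 0.73 was the largest of the 11 genes, or 0.76 with replicates 3 and 4, although the arrays of the ages overlapped as deposited.

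Igfbp4, a binding protein that holds IGFs back from the receptor, was on the male side on all 4 arrays at 2 months, at -0.061, -0.58, -0.054 and -0.68, a mean of -0.34 ± 0.33. At 8 months it was at 0.55, -0.0072, 0.41 and -0.14, a mean of 0.20 ± 0.33. With the drift subtracted the mean was 0.076 and replicate 2 was at -0.53. The Cy3 orientation of Igfbp4 was the higher one at both ages. Igfbp6, which prefers IGF2, was at 0.26 ± 0.27 at 2 months with 3 of 4 arrays above 0, and at -0.038 ± 0.19 at 8 months. Igfbp1, an insulin-regulated binding protein made by the liver, was at 0.20 ± 0.31 and -0.15 ± 0.71, and its neighbour on chromosome 11 is Igfbp3. Igfals, the acid labile subunit that joins IGFs and Igfbp3 or Igfbp5 in a complex in blood, was at -0.024 ± 0.37 at 2 months and 0.38 ± 0.47 at 8 months, or 0.27 on replicates 3 and 4. Igfals and Igfbp3, 2 partners of that complex, both had a mean near 0 at 2 months and were above 0 on replicates 2 to 4 at 8 months. The drift on replicate 2 at 8 months was 0.51 for Igfals and 1.1 for Igfbp3. The other partners named were below 0 by the mean at 8 months, Igfbp5 at -0.78, Igf1 at -0.21 and Igf2 at -0.52. For Igfals and Igfbp3, the SD of the arrays at 8 months was larger than the mean.

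At 1 age there is no test across animals, since each sex was 1 pool, so genes were counted by a size rule that asked for a mean of 1.5-fold or more and no array of the opposite sign. None of the 11 genes met this at 2 months, where 4.17% of all rows did, and none at 8 months, where 2.98% did. By sign alone 3 of 11 (Igf1r and Igfbp2 above 0, Igfbp4 below) kept 1 side at 2 months, against 35.8% of rows. At 8 months 2 of 11 did, Igfbp2 above and Igf1 below 0, against 10.6%. With the drift subtracted there were 3 of 11, Igf1, Igfbp2 and Igfbp3, against 19.5%. In both counts Igf1 kept 1 side only as the average of its 2 rows. Probe 6943 was at 0.71 on replicate 1 and probe 11864 at 0.49 on replicate 2. With the drift subtracted these were at 0.11 and 0.17. Without the sign rule Igfbp3 and Igfbp5 were past 1.5-fold at 8 months, as were 6.08% of rows. With 11 genes, each of these counts rests on at most 3 genes. For the difference of the ages, asked to be 1.5-fold with no overlap of the arrays, none of the 11 genes qualified and 3.29% of rows did.

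**Figure D3:**
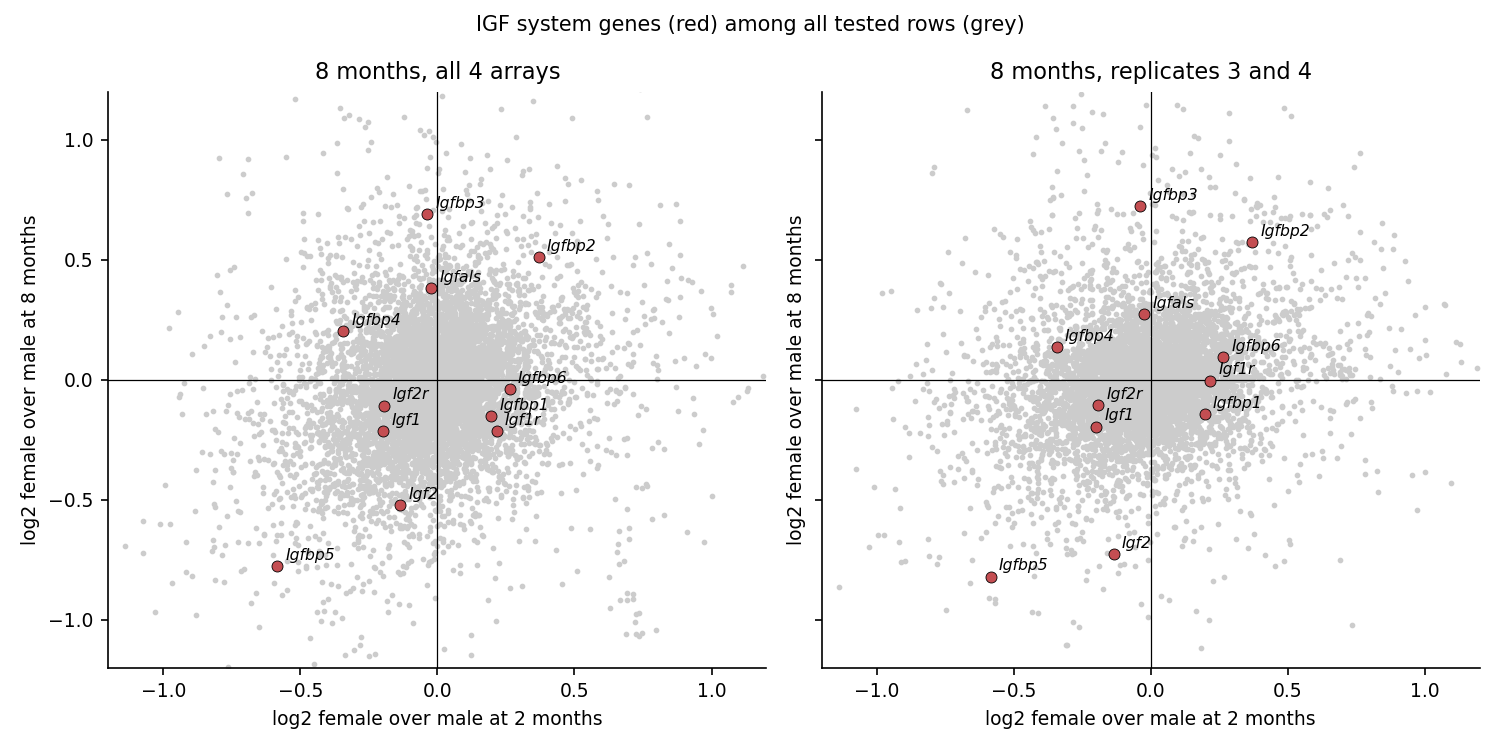
Log2 female over male ratio at 2 months (x axis) against that at 8 months (y axis) from all 4 arrays (left) or from replicates 3 and 4 (right); each grey point is 1 of the tested rows, rows beyond the axes are not drawn, and red points are the 11 genes. Igfbp5 stands at the lower left, Igfbp2 at the upper right and Igfbp3 on the upper axis in both panels, and Igf2 lies lower in the right panel than in the left.

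**Figure D4:**
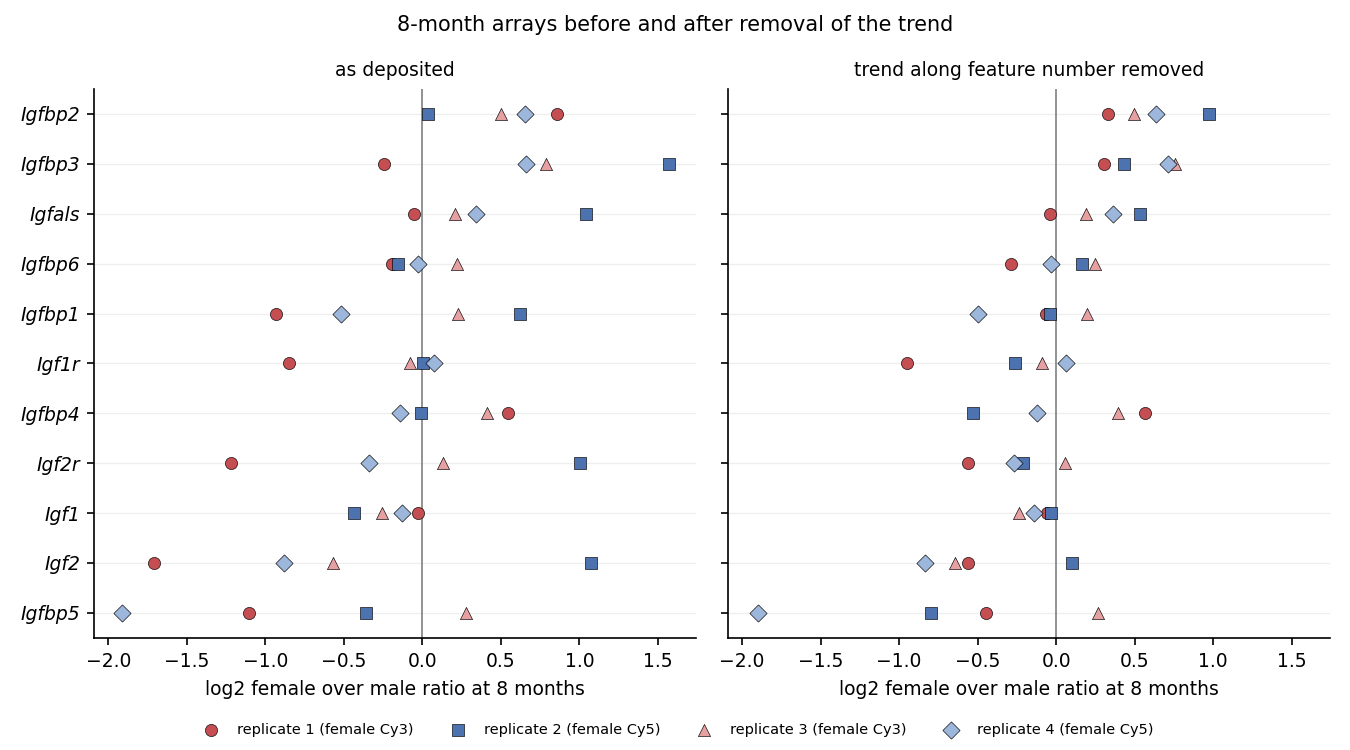
Log2 female over male ratio at 8 months (x axis) of the 11 genes on each array, as deposited (left) and after subtraction of the smooth trend along the feature number (right); symbols stand for the 4 replicates. Replicates 1 and 2 of Igf2 move from -1.71 and 1.07 to -0.56 and 0.099, and the 4 arrays of Igfbp3 come to lie above 0, while Igfbp5 keeps its spread.

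Other genes of the pathway came from 6 lists, none of whose members passed the test over both ages. Of the signal transduction list, 14 of 38 genes were tested and none met the size rule at either age. The medians were -0.035 at 2 and -0.10 at 8 months, and at 8 months 2 of 14 were above 0, against 45.0% of all rows. Pik3ca, the catalytic subunit of phosphoinositide 3-kinase that acts downstream of Igf1r, was below 0 on all 8 arrays, as were 1.56% of all rows. Averaged over its 2 rows, it was at -0.11, -0.33, -0.62 and -0.60 at 2 months. At 8 months it was at -0.28, -0.22, -0.20 and -0.15, and with the drift subtracted replicate 2 was at -0.0039. Its value over both ages was -0.31 ± 0.13 (SE, n = 2 pairs of pools; limma adjusted p = 0.49). Ptpn11, a phosphatase, was at -0.34 over both ages, but was above 0 on the 4 arrays with the female pool in Cy3 and below 0 on the 4 with it in Cy5. Pdpk1, the kinase that activates Akt, was at -0.19, and Eif4ebp1, a translation inhibitor, at 0.19.

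Of the growth hormone axis, which drives Igf1 in liver, 6 of 14 genes were tested. Of these 1 met the size rule at 2 months (4.17% of all rows did) and another at 8 months (2.98%). Socs1, an inhibitor of cytokine signalling, was higher in the female pool at 2 months on all arrays (1.16, 0.97, 1.31 and 0.58, mean 1.00) and at 0.28 at 8 months. Socs3, of the same family, was at 0.11 at 2 months and at 0.41, 1.59, 0.78 and 0.33 at 8 months, a mean of 0.78, or 0.55 on replicates 3 and 4, where it no longer met the rule. Ghr, the growth hormone receptor, was at -0.24 and 0.00054 at the 2 ages and Stat5a, its transcription factor, at -0.071 and -0.27. Socs1 was high in the same pool as the T cell markers, whose part in its value was not tested.

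Of the proteases that cut binding proteins and their inhibitors, 13 of 22 were tested. At 8 months 3 of the 13 were higher by the size rule (1.68% of all rows were). At 2 months 1 was higher, where 4.17% of all rows met the rule in either direction. Mmp7, a matrix protease, was at 0.76, 1.09 and 1.62 on the 3 arrays that measured it at 8 months, a mean of 1.28 from both orientations, and at 0.62 at 2 months. Timp1, an inhibitor of matrix proteases, was at 2.29, 0.32, 1.84 and 2.44 at 8 months and at -0.16 at 2 months. Mmp9, named after its values were seen, was at 0.59, 0.58, 0.20 and 0.98, a mean of 0.59 just past the minimum. Adam12, a protease of Igfbp3 and Igfbp5, was at 0.82 at 2 months, from 0.39 to 1.45, and at 0.24 at 8 months. Klk1, a kallikrein, was at 0.13 at 2 months and at 1.08, -0.17, 0.40 and 1.33 at 8 months, a mean of 0.66. It missed the rule through replicate 2 and met it with the drift subtracted (mean 0.80) and on replicates 3 and 4 (mean 0.87). That made 4 of the 13 in each case, where 2.89% and 3.06% of all rows met the rule in either direction. These proteases act on many proteins besides binding proteins.

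Of the insulin and other receptors 10 of 14 and of the imprinted growth network 6 of 18 were tested. None met the size rule at either age. The ages of Itgb3, an integrin chain named after its values were seen, differed by 0.86 without overlap. The size rule for the age difference was met by 3.29% of all rows. At 8 months Itgb3 was at 0.78, 0.76, 0.31 and 0.20, and with the drift subtracted replicate 2 was at 0.28. From replicates 3 and 4 its difference of the ages was 0.60. Grb10, an imprinted adaptor that restrains insulin and IGF receptors, stands in both lists and was at -0.39 and -0.20, with 6 of 8 arrays below 0. Meg3, a non-coding RNA of an imprinted cluster, was at -0.11 and -0.44, Slc22a18 at 0.14 and 0.34 and Phlda2, a growth-restraining protein, at -0.11 and -0.14. With the drift subtracted the 8-month values were -0.15 for Meg3, 0.22 for Slc22a18 and -0.083 for Phlda2. On replicates 3 and 4 they were -0.28, 0.13 and -0.30. Itgav, Itga5 and Cav1, 2 integrin chains and the coat protein of caveolae, were at -0.28, 0.19 and -0.19 over both ages. Of the related secreted proteins 4 of 16 were tested. Ccn5, a matricellular protein, was lower in the female pool at 2 months by the size rule, at -0.64, -0.68, -1.15 and -0.60, and at 0.58, -0.14, 0.35 and 0.46 at 8 months. Its ages did not overlap and differed by 1.08. Of all rows, 4.17% met the size rule at 2 months and 3.29% met that for the age difference. Ccn1, Igfbpl1 and Ccn4 were at -0.11, -0.053 and 0.0056 over both ages.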

How the data were processed

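The deposited table holds 1 value per array and probe, a log10 ratio of Cy5 over Cy3 that the authors made with Agilent Feature Extraction 7.1.1, per the labels; how they were normalized beyond that is not stated in the labels. Values stop at 100-fold, and the direction was checked with Xist, Eif2s3y and Kdm5d. An exact 0, 6.38 to 13.9% of values per array, was treated as no measurement. The number of arrays limits the precision for 1 pair of pools, and the 2 pairs of pools limit that of the comparison of the sexes. Signs were turned to female over male, log10 was converted to log2, and rows of 1 symbol were averaged. Probes were named from the platform annotation through RefSeq gene IDs (6671 rows with 1 symbol, 400 with several, 2536 with none).

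A row was tested with at least 3 measured arrays per age and both dye orientations. The 4 arrays of an age were 1 replicate, and the sexes were compared over the 2 age means with limma 3.58.1 in R 4.3.3 (lmFit, eBayes, two-sided, Benjamini-Hochberg over all 7812 rows, called below 0.05), which leaves 1 residual degree of freedom. The fit was tested on simulated data. Drift along the feature number was estimated with lowess (fraction 0.1) and used only where stated. From each pathway list up to 4 genes with the largest value over both ages were named, and for the gene with the largest value over both ages the 3 genes of highest correlation. The genes, lists and tests were chosen with earlier results of these data known. Alternatives were other zeros, centring, scaling, drift, filter, probes, means, fold minimum, the replicate block and leaving out arrays.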

Additional observations from a re-analysis of the deposited data

Results flagged for a closer look

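Among 70 sets of 4 arrays, 2 had an array far from the other 3 by Dixon's test, which chance gives in about 1 of 20. For Igf1r at 8 months replicate 1 was at -0.85, while the other 3 arrays lay between -0.082 and 0.075. For Ccn5 at 2 months replicate 3 was at -1.15, while the others lay between -0.68 and -0.60.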

How the results depend on the processing

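In none of the 16 other fits did a gene of the IGF system pass the test, and the lowest limma adjusted p over all of them was 0.182. Over all rows 0 to 8 were called under the other settings and 4 to 104 with 1 array left out, against 7 as reported.

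The sign over both ages turned for genes near 0. Igf1r was at -0.049 with the drift removed. Leaving out an array put Igf1r between -0.095 and 0.097, Igfbp1 between -0.12 and 0.17 and Igf2r between -0.32 and 0.019. Other genes kept their sign over both ages but moved: Igf2 ran from -0.57 (without replicate 2 at 8 months) to -0.084 (without replicate 4), Igfbp3 from 0.20 (without replicate 3) to 0.46 (without replicate 1) and Igfals from 0.093 (without replicate 2) to 0.27 (without replicate 4). Igfbp5 ran from -0.87 to -0.49.

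The count of genes meeting the size rule, 0 as reported, was 1 at 8 months with the drift removed (Igfbp2) and 2 from replicates 3 and 4 (Igf2 and Igfbp3). For the age difference it was 1 with the drift removed (Igfbp3) and 2 from replicates 3 and 4 (Igf2 and Igfbp3). A minimum of 1.2-fold gave 2 at 2 months (Igfbp2 and Igfbp4) and 1 at 8 months (Igfbp2). With 1 array left out it was 0 to 1 at 2 months (Igfbp5 without replicate 1), 0 to 2 at 8 months and 0 to 1 for the age difference. At 8 months it was 1 without replicate 1 (Igfbp3), 2 without replicate 2 (Igf2 and Igfbp2) and 2 without replicate 3 (Igfbp2 and Igfbp5). For the age difference it was Igfbp3, Igf2 or Igf1r without replicates 1, 2 or 3 at 8 months. Of all rows, 2.89% met the 8-month rule with the drift removed and 3.06% on replicates 3 and 4. The share of all rows is not given for the other alternatives, so their counts cannot be set against it.

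Same-numbered arrays of the 2 ages had deviations with r = -0.16, -0.10, 0.54 and 0.55 for replicates 1 to 4. Some arrays of the same dye orientation but different numbers gave as much (0.57 for replicate 1 at 2 months with 3 at 8 months, and 0.57 for 2 with 4). Others did not (-0.024 for replicate 3 at 2 months with 1 at 8 months, and -0.043 for 4 with 2). Not every same-numbered pair was above 0.1, so the numbers were not taken as pairs. With the replicate block the count for the age difference stayed 0, and Igfbp3 differed by 0.73.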
